A study of Mus musculus with 9 samples.

Results

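Genes of retinoid uptake, binding, metabolism and signalling, 9 in all, were followed in the mouse B16 melanoma tumour environment, and 6 of the 9 had probes that could be named and were detected. The genes were chosen by symbol, as Stra6, Rbp4, Crabp1, Crabp2, Aldh1a2, Aldh1a3, Dhrs3, Rarg and Rxra, and every probe that reached a detection p under 0.05 on 4 or more of the 9 arrays was kept. This gave 7 probes out of 20190 detected probes, 2 of them for Rarg and 1 each for Stra6, Rbp4, Crabp2, Aldh1a3 and Rxra. Crabp1, Aldh1a2 and Dhrs3 had no probe named for them in the annotation used here, so they were not analysed here. That annotation named only probes of a smaller table of the authors, so detected but unnamed probes of the 9 genes may have been missed. The list was drawn up with measured differences between PC61 and PBS on these arrays known, among them the large one of Stra6, so the values below are a description of these genes and no independent evidence about them.

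The 9 arrays held 5 samples labelled PBS and 4 labelled PC61, all of B16 tumour environment from C57/Bl6 mice 8 weeks of age, 14 days from the inoculation of the tumour. B16 is a transplantable melanoma line that grows in this strain, and PC61 is an antibody to CD25 that is given to deplete regulatory T cells, with PBS as the vehicle. The labels number the replicates but do not say that they are separate mice, so each p reflects only how far these arrays spread, which may be technical. No source used here gives the dose or schedule of the antibody. Foxp3, which marks the cells to be depleted, had a log2 difference, PC61 minus PBS, of -0.32 ± 0.18 (SE), which did not pass the threshold of 0.05 (limma adjusted p = 0.231).

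Retinol travels in blood bound to the carrier RBP4, enters cells through the membrane transporter STRA6, and is oxidised first to retinal and then, by enzymes of the ALDH1A family, to retinoic acid. The small proteins CRABP1 and CRABP2 bind retinoic acid inside the cell, and CRABP2 is known for handing it to nuclear receptors of the RAR family, which act as partners of RXR receptors. In skin this pathway is known for its part in the differentiation of keratinocytes and in the hair cycle, with RARG as the main retinoic acid receptor of the epidermis.

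Each array detected between 18572 and 20742 probes. One array stood apart: on PC61 replicate 4 the mean of the melanocyte and melanoma marker list was 4.62 log2 units below the PBS mean, while it lay between 1.61 and 0.29 units below on the other PC61 arrays. Of the 16 listed melanocyte and melanoma genes 15 were measured, and 12 of the 15 were detected on all 9 arrays. Pigment genes of this list are also made by melanocytes of skin and hair, whose tissue markers were detected on these arrays, so their detection does not show tumour cells on any 1 array. Values without PC61 replicate 4 are given beside each retinoid gene that differed.

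Of the 7 retinoid probes 3, those of Stra6, Crabp2 and Aldh1a3, were higher in PC61 at an adjusted p under 0.05, and 0 were lower. Over all detected probes, 20.0% were past the same threshold, 10.7% as higher and 9.28% as lower, and over those with 1 gene symbol, as all 7 are, 23.4% were past it and 12.8% as higher. The same 3 probes had groups that did not overlap, as did 17.6% of all detected probes (8.49% with PC61 above PBS and 9.13% with PC61 below). Of the 14906 detected probes with 1 gene symbol, 1474 had PC61 above PBS without overlap and 1519 had it below. The median log2 difference of the 7 probes was 0.69, beside -0.07 over all detected probes. This median is the value of Rbp4, a probe at the edge of detection, and it was 0.26 with array weights, 0.36 with an offset of 50 and 0.46 without PC61 replicate 3. In bulk tissue a change in the share of the cells that make an RNA and a change in RNA per cell cannot be told apart, and this holds for each value below.

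**Figure D1:**
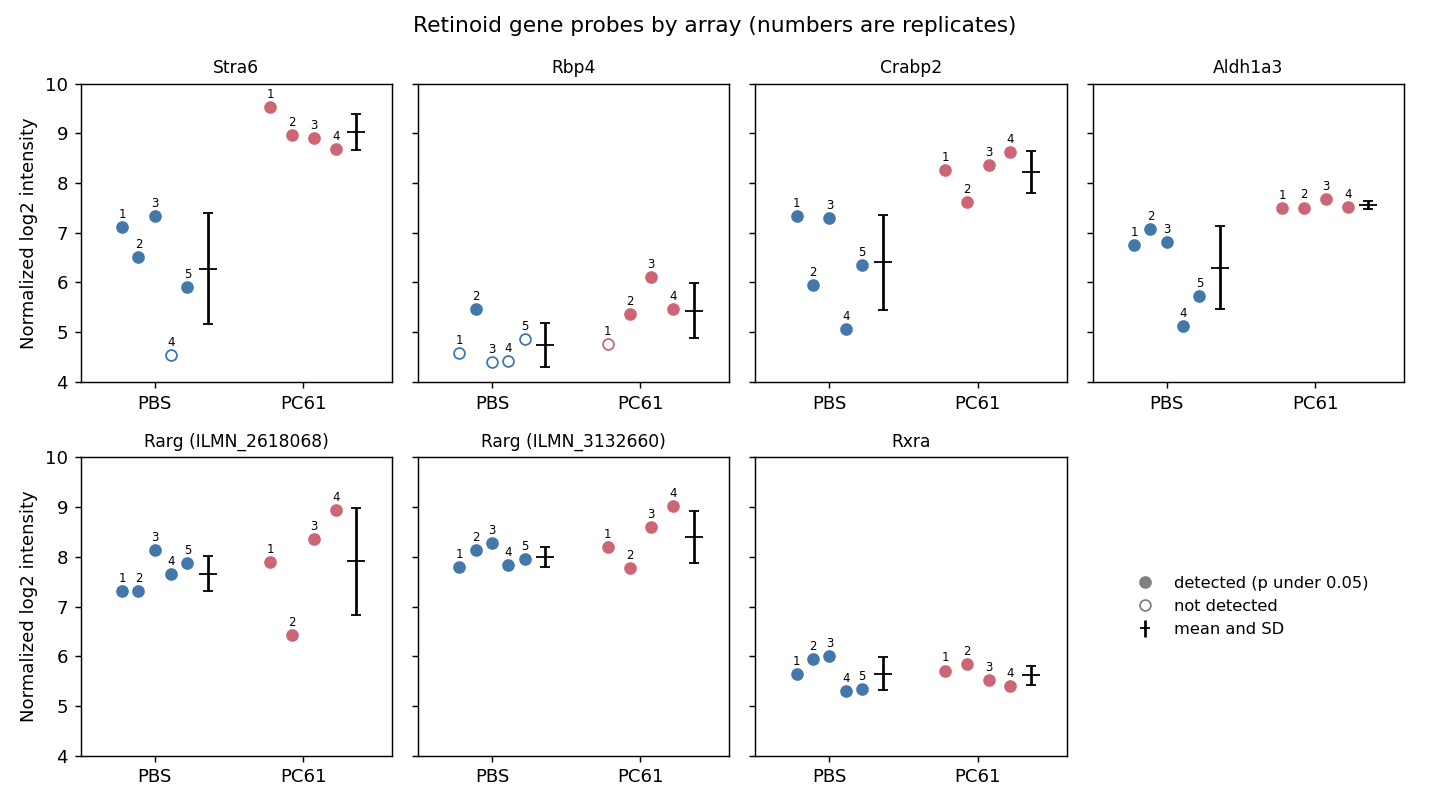
Normalized log2 intensity of the 7 retinoid probes on each of the 9 arrays, by group. Points are arrays numbered by replicate (open points were not detected), and bars are the mean and SD. All 4 PC61 arrays lie above all 5 PBS arrays for Stra6, Crabp2 and Aldh1a3, and the groups overlap in the other 4 panels.

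Stra6, the transporter that takes up retinol from its blood carrier, showed the greatest difference of the 7 probes. Its log2 intensity in PBS was 7.11, 6.51, 7.34, 4.54 and 5.90 on replicates 1 to 5, and in PC61 it was 9.54, 8.97, 8.92 and 8.69 on replicates 1 to 4. Every PC61 array was above every PBS array, and PBS replicate 4 was the lowest of the 9 and the only array on which the probe was not detected. The group means were 6.28 ± 1.12 (SD, n = 5) and 9.03 ± 0.36 (SD, n = 4), a log2 difference of 2.75 ± 0.48 (SE) or 6.72-fold (limma adjusted p = 0.0128 over all detected probes). Because 1 PBS array was near background, this fold is limited in part by background. The difference was 2.31 without PBS replicate 4 and 2.86 without PC61 replicate 4, and it stayed past the threshold whichever single array was left out (adjusted p from 0.00586 to 0.0426). Among all detected probes Stra6 ranked 9th from the top by log2 difference. In the authors' deposited table the ratio of PC61 to PBS for this probe was 5.44, with a Benjamini-Hochberg value of 0.0139.

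Rbp4, the gene of the blood carrier of retinol, stood at the edge of detection. Its probe was detected on PBS replicate 2 and on PC61 replicates 2, 3 and 4, which is the minimum of 4 arrays. The detection p was 0.0534 on PBS replicate 5 and 0.0855 on PC61 replicate 1, the arrays closest to the limit among those that missed it. The log2 intensity was 4.57, 5.47, 4.40, 4.42 and 4.87 in PBS and 4.77, 5.37, 6.12 and 5.48 in PC61. The highest value was on PC61 replicate 3, and the groups overlapped through PBS replicate 2 and PC61 replicate 1. The log2 difference was 0.69 ± 0.29 (SE, limma adjusted p = 0.118), with a 95% confidence interval from 0.04 to 1.33, and it was 0.46 without PC61 replicate 3.

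Crabp2, which binds retinoic acid in the cytosol and delivers it to nuclear receptors, was the other binding protein named here. Its log2 intensity was 7.34, 5.96, 7.30, 5.07 and 6.35 in PBS and 8.27, 7.62, 8.36 and 8.62 in PC61. The lowest PC61 array, replicate 2, was above the highest PBS array, replicate 1, by less than the SD of either group. The means were 6.40 ± 0.96 (SD, n = 5) and 8.22 ± 0.42 (SD, n = 4), a log2 difference of 1.81 ± 0.43 (SE) or 3.52-fold (limma adjusted p = 0.0181). On PBS replicate 4 the probe only just counted as detected (detection p 0.0459), so background limits this fold in part. The difference was 1.68 without PC61 replicate 4 and 1.48 without PBS replicate 4, both past the threshold (limma adjusted p = 0.0345 and 0.0299). The call was lost without PC61 replicate 3, at a difference of 1.77 (limma adjusted p = 0.0568).

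Aldh1a3, an enzyme that oxidises retinal to retinoic acid, had nearly the same value on all PC61 arrays. They read 7.50, 7.51, 7.67 and 7.52 on replicates 1 to 4, against 6.76, 7.07, 6.82, 5.12 and 5.72 on the PBS arrays. PBS replicates 4 and 5 were the low arrays, and the other 3 PBS arrays lay closer to the PC61 arrays. On PBS replicate 4 the probe only just counted as detected (detection p 0.0406), so background limits the difference in part. The means were 6.30 ± 0.84 (SD, n = 5) and 7.55 ± 0.08 (SD, n = 4), a log2 difference of 1.25 ± 0.36 (SE) or 2.38-fold (limma adjusted p = 0.0330). This was the least stable of the 3 calls. It was lost without PBS replicate 4 (0.96, limma adjusted p = 0.0514), PBS replicate 5 (1.11, 0.0801), PC61 replicate 1 (1.27, 0.0634), PC61 replicate 3 (1.21, 0.0865) or PC61 replicate 4 (1.26, 0.0511). The confidence interval over all 9 arrays ran from 0.47 to 2.04.

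The receptor Rarg was read by 2 probes. The probe ILMN_2618068 gave 7.32, 7.32, 8.14, 7.66 and 7.88 in PBS and 7.90, 6.42, 8.36 and 8.94 in PC61. The probe ILMN_3132660 gave 7.80, 8.13, 8.28, 7.84 and 7.96 in PBS and 8.20, 7.78, 8.59 and 9.02 in PC61. On both probes PC61 replicate 4 was the highest and PC61 replicate 2 the lowest of all 9 arrays, so the PC61 arrays enclosed the PBS arrays. The log2 differences were 0.24 ± 0.42 (SE, limma adjusted p = 0.713) and 0.40 ± 0.25 (SE, limma adjusted p = 0.266), with 95% confidence intervals from -0.66 to 1.15 and from -0.14 to 0.93. Leaving out 1 array moved the first from -0.10, without PC61 replicate 4, to 0.74, without PC61 replicate 2, and the second from 0.19 to 0.60, none of them past the threshold. The 2 probes ran close on most arrays but differed on PC61 replicate 2, where the first lay 1.24 below its PBS mean and the second 0.22 below.

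Rxra, the partner receptor, differed least. Its log2 intensity was 5.64, 5.94, 6.01, 5.29 and 5.34 in PBS and 5.71, 5.84, 5.52 and 5.40 in PC61, and all PC61 values lay inside the PBS range. The log2 difference was -0.03 ± 0.21 (SE, limma adjusted p = 0.943). The confidence interval from -0.48 to 0.42 bounds a change in either direction at these sample numbers.

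**Figure D2:**
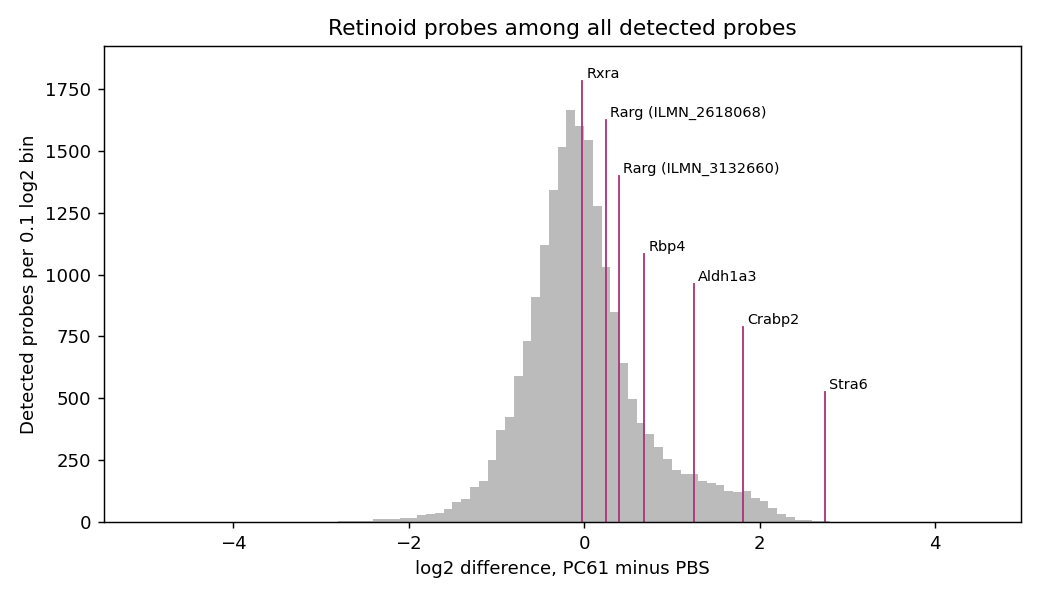
Log2 difference, PC61 minus PBS, of all 20190 detected probes in bins of 0.1 (grey), with the 7 retinoid probes as vertical lines whose height has no meaning. Stra6 at 2.75 lies in the far right tail, Crabp2 at 1.81 and Aldh1a3 at 1.25 in the right shoulder, and Rxra at -0.03 near the centre.

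The 3 genes that rose did not share 1 profile across arrays. PBS replicate 4 was the lowest array of all 3. Among the PC61 arrays Stra6 was highest on replicate 1 and lowest on replicate 4, Crabp2 was highest on replicate 4 and lowest on replicate 2, and Aldh1a3 was flat. As a measure of likeness, each probe was centred on its own mean and the root mean square difference between probes was taken over the 9 arrays in log2 units. Probes were not scaled, so by construction genes near a probe have a difference between groups close to its own. The measure was 0.65 between Stra6 and Crabp2, 0.85 between Stra6 and Aldh1a3 and 0.61 between Crabp2 and Aldh1a3. These values thus reflect in part the unlike differences of the 3 genes. The 2 Rarg probes were 0.40 apart. Over all named genes, those nearest to Stra6 were Klf4 (0.22), Foxe1 (0.35), Tgm3 (0.36), Psors1c2 (0.37) and Serinc2 (0.38), whose own log2 differences ran from 2.23 for Serinc2 to 2.70 for Tgm3. Klf4 is a zinc finger transcription factor of epidermis and other epithelia, and Tgm3 is a transglutaminase of epidermis and hair. Nearest to Rxra, the retinoid probe with the lowest difference, were Wdr18 (0.09), Dph1 (0.11) and Ankrd54 (0.11).

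Markers of skin moved with the same samples. Taking the brightest probe of each of the 10096 named genes, 14.5% were higher in PC61 and 10.2% lower, and the marker counts stand beside these shares. Of the 17 listed keratinocyte genes 14 were measured, all detected on all 9 arrays, and 12 of the 14 were higher in PC61 (median log2 difference 1.95). The mean of the list, relative to its PBS mean, ran from -1.48 to 0.87 in PBS and from 0.89 to 2.78 in PC61, with PBS replicate 4 the lowest array and PC61 replicate 4 the highest. Of the 17 hair follicle genes 13 were measured and 12 were higher, and the list mean ran from -1.27 to 0.69 in PBS and from 1.14 to 2.33 in PC61. The root mean square difference from the hair follicle and keratinocyte list means was 0.20 and 0.26 for Crabp2 and 0.68 and 0.75 for Stra6. It was 0.52 and 0.68 for Aldh1a3, which lay nearer to the fibroblast (0.39) and adipocyte (0.40) lists. The skeletal muscle list was also near, at 0.38 for Crabp2, 0.82 for Stra6 and 0.71 for Aldh1a3. Such closeness is not particular to skin, because a list whose difference between groups is like that of the probe comes out near. The part of these cell types in the retinoid differences was not tested.

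Other tissue markers moved as well. The skeletal muscle list had 14 of 15 measured genes higher, with list means from -0.77 to 0.44 in PBS and from 1.18 to 2.68 in PC61. In the fibroblast list 4 of 14 measured genes were higher (list mean from -0.78 to 0.41 in PBS and from 0.43 to 1.25 in PC61), and in the adipocyte list 3 of 8 (from -0.86 to 1.38 and from 0.91 to 2.06). In the melanocyte and melanoma list 4 of 15 measured genes were lower. Its mean ran from -0.35 to 0.43 in PBS and from -4.62 to -0.29 in PC61. In the blood endothelium list 1 of 10 measured genes was higher and 1 lower, about the shares over all genes. The T cell list (6 of 12 genes measured) and the macrophage and dendritic cell list (9 of 16) had 0 genes past the threshold, and their PC61 means ran from -1.03 to 0.62 and from -0.79 to 0.69.

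**Figure D3:**
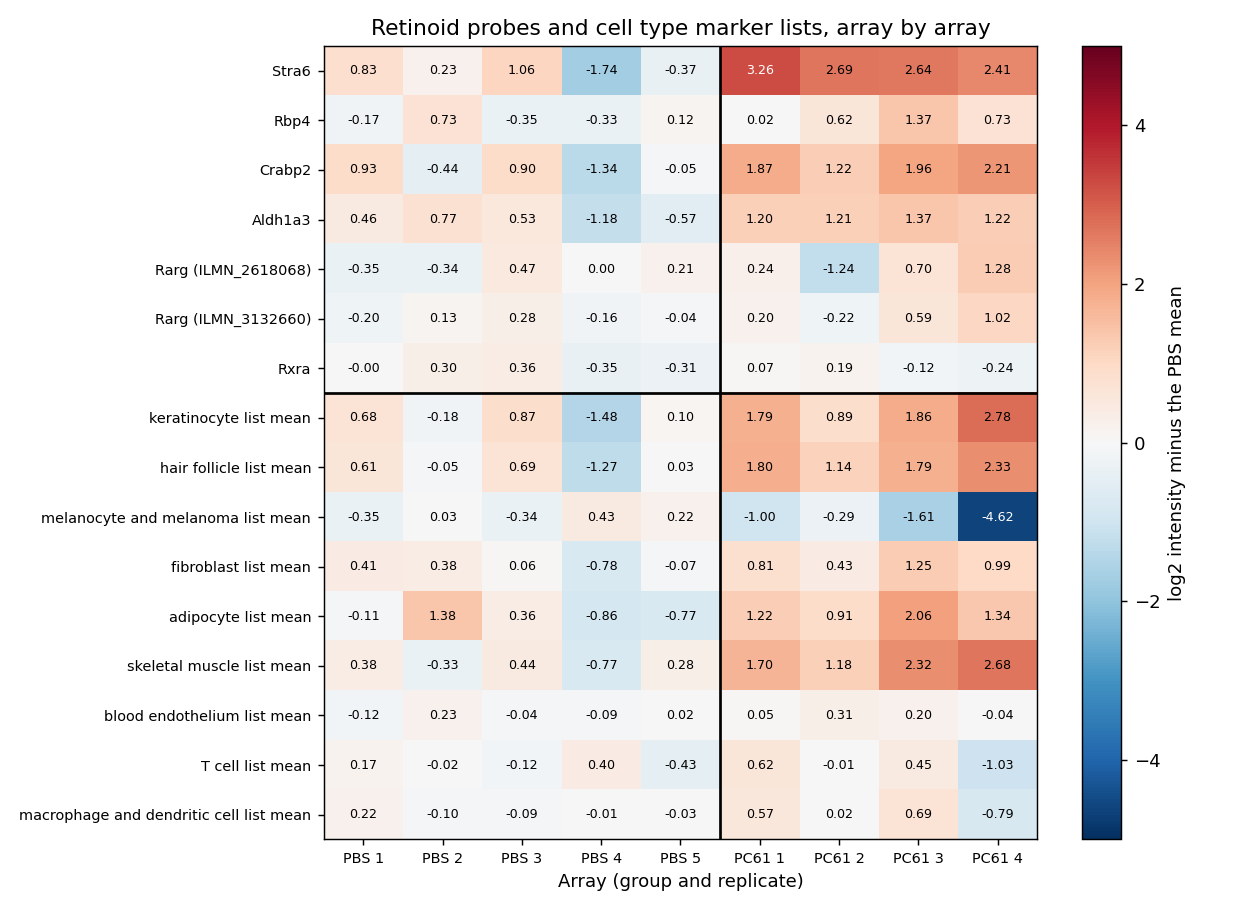
Log2 intensity minus the PBS mean for the 7 retinoid probes (above the line) and for the mean of each marker list (below it), on each array. Stra6 is 2.41 to 3.26 above its PBS mean on the PC61 arrays, Crabp2 1.22 to 2.21 and Aldh1a3 1.20 to 1.37, and PBS replicate 4 is low for these 3 genes and for the keratinocyte and hair follicle lists.

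The other genes of the pathway gave a mixed picture. A list of 53 further genes of retinoid transport, storage, oxidation, breakdown and reception had 26 measured genes with 37 probes. It was drawn up with earlier results of these data known. Of the 37 probes 7 rose and 2 fell, or 24.3% in all, beside 20.0% of all detected probes and 23.4% of the 14906 detected probes with 1 gene symbol. The median log2 difference of the list was 0.05, and it was 0.23 with array weights and 0.15 with cyclic loess. Single arrays moved this count, to 2 without PBS replicate 5 or PC61 replicate 3, to 3 without PBS replicate 4 or PC61 replicate 4, to 4 without PBS replicate 2 or PC61 replicate 1, and to 22 without PC61 replicate 2.

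Among cellular binding proteins, Rbp2, a cytosolic retinol-binding protein known mostly from intestine, rose on both of its probes. The probe ILMN_2776265 read 5.46, 5.36, 5.74, 4.77 and 5.28 in PBS and 6.86, 6.76, 6.70 and 6.39 in PC61, and the groups did not overlap on either probe. The log2 differences were 1.36 ± 0.21 and 1.26 ± 0.21 (SE, limma adjusted p = 0.0128 for both), and both calls held whichever array was left out. However, ILMN_2776265 was detected on only 4 of 5 PBS arrays, so background limits its difference in part. Rbp7, another cytosolic retinol-binding protein, fell by 1.03 ± 0.29 (SE, limma adjusted p = 0.0312), from 7.81 ± 0.37 (SD, n = 5) to 6.78 ± 0.61 (SD, n = 4). Fabp5, a fatty acid-binding protein that can also carry retinoic acid and is given here after its values were seen, was at 0.64 ± 0.25 (limma adjusted p = 0.0924).

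Among enzymes, Sdr16c5, an epidermal retinol dehydrogenase, rose by 1.69 ± 0.48 (SE, limma adjusted p = 0.0325). Rdh12, a retinol dehydrogenase, rose on both probes, by 1.16 ± 0.36 on ILMN_1246729, which was detected on 3 of 5 PBS arrays, and by 1.66 ± 0.53 on ILMN_2836501 (limma adjusted p = 0.0411 and 0.0461). The latter probe was added after its values were seen. Cyp2s1, a cytochrome P450 of epithelia, rose by 1.56 ± 0.47 (adjusted p = 0.0376). Aldh1a1, a retinal dehydrogenase of the same family as Aldh1a3, rose by 0.87 ± 0.26 (adjusted p = 0.0382). However, Aldh1a1 was detected on only 1 of 5 PBS arrays and all 4 PC61 arrays, so background limits this value. It met the filter of 4 arrays only through the PC61 arrays, where it is high, so its call is no support for a rise. Retsat, which saturates retinol, fell on 1 of 2 probes, by 1.09 ± 0.34 (adjusted p = 0.0448), and the other read -0.89 (adjusted p = 0.0976). Just outside the threshold were the alcohol dehydrogenase Adh7 (1.52 ± 0.50, adjusted p = 0.0520), Rdh9 (1.56 ± 0.53, adjusted p = 0.0562) and Adh5 (-0.61 ± 0.22, adjusted p = 0.0697). Sdr16c5, Rdh12, Cyp2s1, Adh7 and Rdh9 were each highest on PC61 replicate 4 and lowest on PBS replicate 4, apart from the probe ILMN_1246729 of Rdh12, which was lowest on PBS replicate 5. The calls of Rbp7, Sdr16c5, Rdh12, Cyp2s1, Aldh1a1 and Retsat did not survive the omission of any 1 of 5 arrays, namely replicates 2, 4 and 5 of PBS and replicates 3 and 4 of PC61, and their adjusted p then reached up to 0.115. Those of Rbp7, Sdr16c5, Cyp2s1, Retsat and Rdh12 on ILMN_2836501 were also lost without PC61 replicate 1, those of Aldh1a1, Rdh12 and Retsat without PBS replicate 3, and those of Rbp7 and Retsat without PBS replicate 1.

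Of the other receptors 0 passed the threshold, beside 23.4% of all detected probes with 1 gene symbol. With so few probes this count is unremarkable. These receptors are given here for their role after their values were seen. Rara was at -0.24 ± 0.23 (SE, limma adjusted p = 0.489). Rarb, itself a textbook target of retinoic acid, was at -0.76 ± 0.30 and -0.64 ± 0.35 on its 2 probes (adjusted p = 0.0905 and 0.207). The first of these was detected on 4 of 5 PBS arrays and 1 of 4 PC61 arrays. Its difference passed the threshold without PBS replicate 3 or without PC61 replicate 2. Rxrb had 2 probes that disagreed, at -0.71 ± 0.32 (adjusted p = 0.128) and 0.02 ± 0.19 (adjusted p = 0.945), and the first passed the threshold without PC61 replicate 4. The lowest adjusted p among these single-array omissions was 0.0206 for Rarb and 0.0263 for Rxrb. Both probes also passed as lower with array weights, Rxrb at a limma adjusted p of 0.00640, but with no other change of the processing.

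**Figure D4:**
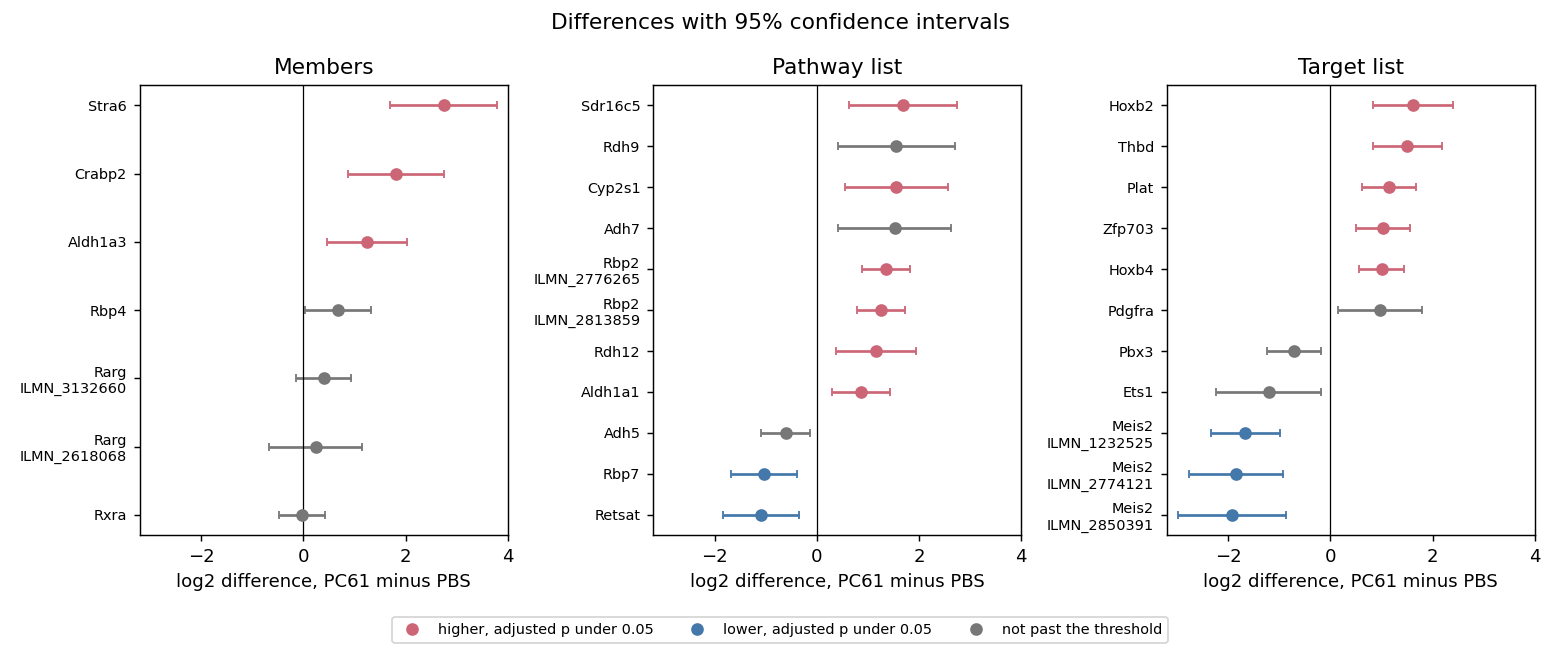
Log2 difference, PC61 minus PBS, with 95% confidence intervals for the 7 retinoid probes, the named probes of the pathway list and those of the target list. Red and blue points passed an adjusted p of 0.05 as higher and lower, and grey points did not. Stra6 has the greatest difference at 2.75, and Meis2 the lowest at -1.92.

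Genes known from other systems to respond to retinoic acid were listed as well, 39 in all, and 25 of them were measured with 33 probes. Of the 33 probes 10 rose and 4 fell, or 42.4%, beside 23.4% of the detected probes with 1 gene symbol and 20.0% of all detected probes. Some genes had several of these probes, and the calls came from 9 genes that rose and 2 that fell. The list was drawn up with earlier results of these data known, so its share of calls is a description and no independent evidence. The median log2 difference was 0.41, and it was 0.17 with array weights, 0.27 with an offset of 50 and 0.26 without PC61 replicate 3. Several of these genes are known to answer to other signals too and are expressed in skin, and 1 of them, Pdgfra, is also in the fibroblast list, so the list is no specific readout of retinoic acid. Leaving out PC61 replicate 3 gave 5 calls, leaving out PBS replicate 5 gave 8, and leaving out PBS replicate 4 gave 9.

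The Hox genes, homeobox genes of body axis patterning, make up 6 of the 25 measured genes of the target list. Over all detected probes with 1 gene symbol, 12.8% were higher and 23.4% past the threshold in either direction. Of these 6 Hox genes 3 rose (Hoxb2, Hoxb4 and Hoxb5) and 3 did not pass the threshold. The latter, given here after their values were seen, were Hoxa4 at 0.48 (limma adjusted p = 0.113), Hoxa5 at 0.22 (adjusted p = 0.450) and Hoxd4 at -0.89 (adjusted p = 0.115). Hoxb4 read 6.58, 6.14, 6.57, 6.03 and 6.63 in PBS and 7.36, 7.08, 7.59 and 7.56 in PC61, without overlap, and rose by 1.01 ± 0.20 (SE, limma adjusted p = 0.0135). Hoxb2 rose by 1.62 ± 0.36 (adjusted p = 0.0155, and 0.0537 without PC61 replicate 3). Thbd, the thrombomodulin gene, rose by 1.51 ± 0.31 (adjusted p = 0.0141) and Plat, the tissue plasminogen activator gene, by 1.16 ± 0.24 (adjusted p = 0.0144), and both calls held whichever array was left out. Thbd was detected on only 4 of 5 PBS arrays, so background limits its difference in part. Zfp703, a zinc finger corepressor, rose by 1.03 ± 0.24 on ILMN_2420465 (adjusted p = 0.0176, and 0.0535 without PC61 replicate 3) and was at 0.41 on its other probe (adjusted p = 0.251). Meis2, a homeobox partner of Hox proteins, fell on all 3 of its probes, by 1.66 ± 0.31, 1.84 ± 0.42 and 1.92 ± 0.48 (adjusted p = 0.0128, 0.0167 and 0.0221), and the groups did not overlap on any of them. The Meis2 call on the last of these probes was lost without PBS replicate 4, PBS replicate 5 or PC61 replicate 3 (adjusted p up to 0.0582), and its difference was -1.30 without PC61 replicate 4.

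The remaining calls of the target list are named here after their values were seen. Rarres1, a gene named for its response to retinoids, rose by 1.74 ± 0.45 (SE, limma adjusted p = 0.0241), a call lost without PBS replicate 2 or PC61 replicate 3. Egr1 rose by 1.48 ± 0.38, Sox9 by 1.57 ± 0.42 and 1.45 ± 0.46 on 2 probes, and Hoxb5 by 0.70 ± 0.21, while Bhlhe40 fell by 0.94 ± 0.24, with adjusted p from 0.0232 for Egr1 to 0.0467 for the second Sox9 probe. All 5 of these calls were lost without PBS replicate 5 or PC61 replicate 3 (adjusted p up to 0.132). Some were lost also on leaving out other arrays. Not past the threshold were Pbx3 (-0.71 ± 0.24, adjusted p = 0.0576), Pdgfra (0.97 ± 0.38, adjusted p = 0.0872) and Ets1 (-1.20 ± 0.47, adjusted p = 0.0905). Tgm2, a tissue transglutaminase and a classic retinoic acid target, was at 0.03 ± 0.27 (adjusted p = 0.942).

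The upstream sequences of the genes were searched for the motif that RAR and RXR are known to bind, a direct repeat of a motif of 6 bases. The motif was searched as AGGTCA or GGGTCA, and as AGTTCA or GGTTCA, in pairs with 1, 2 or 5 bases between them, on both strands of the 250 bases before each start in RefSeq on GRCm38.p6. Of the retinoid genes 7 had 15 such windows, some of them overlapping, and Crabp2 and Aldh1a3 were not matched. None of the 15 windows held such a repeat, which 0.426% of 32851 windows of all genes did. At so low a share the lack of a repeat in 15 windows is unremarkable. Single motifs lay in 3 of the 15 windows, beside 38.6% of all windows. The gene with the greatest difference, Stra6, had none in its 4 windows. Its window farthest upstream is shown for that reason, at chr9:58128838-58129087 on the plus strand, without capitals because nothing was matched. Which start these tumours used was not measured.
Stra6 upstream window: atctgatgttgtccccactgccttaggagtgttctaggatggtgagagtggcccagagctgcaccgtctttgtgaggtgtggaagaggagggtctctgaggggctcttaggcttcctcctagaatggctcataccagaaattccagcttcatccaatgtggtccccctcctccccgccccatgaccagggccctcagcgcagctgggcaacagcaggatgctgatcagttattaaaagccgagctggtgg

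The single motifs that were found belonged to Rxra, Rarg and Rbp4, none of which passed the threshold. Crabp2 and Aldh1a3, which did pass it, had no window to search, so the motifs cannot be set against the calls. They are shown with 12 bases on each side, 5′ to 3′ on the strand of the gene, and capitals mark the motif or its reverse complement. They were picked for printing after the search. They lie at chr2:27709232-27709261, chr2:27709193-27709222 and chr2:27709175-27709204 for Rxra (plus strand), chr15:102257730-102257759 for Rarg (minus strand) and chr19:38125357-38125386 for Rbp4 (minus strand). A match of these letters is a description of the sequence and says nothing about binding in these samples.
Rxra first site: gggtggcaggaaAGGTCAgtcactctctgt
Rxra second site: tagaaatgggtgTGACCTgagtaatggtca
Rxra last site: ctggagccactaTGACCCtagaaatgggtg
Rarg site: agcccaggacacTGACCTctgccagctctg
Rbp4 site: aagaataaatatTGACCCaaacagcaccac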

How the data were processed

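The retinoid genes, the gene lists and the tests were chosen with earlier results of these data known. RNA was taken up in Trizol, cleaned on RNeasy columns and turned into biotin-labelled cRNA (MessageAmp), per the labels' protocols. The deposited raw table held linear bead intensities of 45273 probes on 9 arrays, and a detection p-value for each, per the file headers. Which scanner and software made it, and whether background was subtracted, no source used here says. The lowest raw intensity was 1.01 on every array, a common floor whose origin is not stated. A further table of the authors gave intensities after quantile normalization for 17382 probes, with their ratio of PC61 to PBS, a test statistic (a score with no stated test) and p-values, per the file headers. The value table of the series repeated these intensities, with a largest difference of 0.

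Here 3 probes with a detection p outside 0 to 1 were removed, and neqc of limma 3.58.1 (R 4.3.3) was run on the raw intensities with an offset of 16: normexp background correction from the detection p, quantile normalization and log2. The offset shrinks differences of dim probes, and quantile normalization hides a shift shared by most genes. Detected probes (20190) were compared with lmFit and eBayes, two-sided, over all 9 arrays, with Benjamini-Hochberg adjustment over all of them and a threshold of 0.05. "Higher", "rose", "lower" and "fell" mean past that threshold, and errors of differences are limma's standard errors. Gene names came from the platform annotation, updated by gene identifier: 14942 of the authors' probes had 1 symbol, 8 several and 2432 none, and probes outside the authors' table are unnamed here. Of the detected probes 14906 had 1 symbol. Marker list means used 1 probe a gene, the brightest. Named were every detected retinoid probe; of the pathway and target lists up to 8 probes past the threshold with the smallest p and the 3 nearest to it; and the nearest genes by profile. Other genes, and further probes of a named gene, were added after their values were seen. The fit was tested on simulated arrays. Precision is limited by the number of arrays. Alternatives changed the normalization, background correction, offset, probe filter, array weights, replicate block and the arrays used.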

Additional observations from a re-analysis of the deposited data

Results flagged for a closer look

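Within groups, the highest or lowest array was set against the others by Dixon's ratio of gap to range for 29 probes in 58 groups of arrays, and chance alone marks about 1 in 20 groups. Here 2 were marked. Aldh1a3 on PC61 replicate 3 was at 7.67, above the other PC61 arrays, the nearest of which was at 7.52, in a group whose SD was only 0.08. Pbx3 on PBS replicate 2 was at 6.05, with the nearest PBS array at 5.64.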

How the results depend on the processing

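Stra6 stayed higher and past the threshold in 18 of 19 alternatives (2.24 to 3.01), Crabp2 in 17 of 20 (1.44 to 2.05) and Aldh1a3 in 13 of 20 (0.93 to 1.44), and no call reversed. Rbp4, both Rarg probes and Rxra passed in none of theirs. With no filter on dim probes the calls were 1796 of all probes, 1 of the retinoid probes (Stra6), 2 of the pathway list and 6 of the target list, against 4041, 3, 9 and 14. With an offset of 50 the pathway list had 4. With 1 probe a gene 2679 genes were called, and with array weights 6279 probes. Cyclic loess moved the share of higher among called probes from 53.6% to 64.2%. Leaving out 1 array gave 972 to 5757 calls of all probes, 1 to 3 of the retinoid probes, 2 to 22 of the pathway list and 5 to 18 of the target list. The replicate numbers did not pair the samples (correlations of deviations from -0.29 to 0.04). The fit with the replicate block, in which PBS replicate 5 has no partner and carries no weight, called 0 probes of all, of the retinoid genes and of both lists in limma, with 5357, 3, 11 and 17 at an unadjusted p under 0.05. In it Stra6 was at 2.65 (adjusted p = 0.109). The number of arrays limits the precision. So does signal near background for Rbp4 and, on some PBS arrays, for Aldh1a1, Stra6, Crabp2, Aldh1a3, Rbp2 and Thbd.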
